A study of Rattus norvegicus with 18 samples.

Results

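Oxidative phosphorylation subunits were followed in the neural retina and in the RPE/choroid of Fischer 344 rats, where RPE is the retinal pigment epithelium. The members are the genes whose symbols begin with the names of subunits of complexes I to V: Nduf, Sdh, Uqcr, Cox and Atp5 genes of the nucleus and Mt-nd, Mt-co, Mt-cyb and Mt-atp genes of the mitochondrial genome. The rule that picks the members reads symbols only. Of 28111 gene symbols in the retina, 94 matched; 4 of these (Cox6c1, Cox8c, Ndufa1 and Ndufb4l1) were at 0 in all 9 libraries, which leaves 90 with reads, 12 mitochondrial and 78 nuclear. In RPE/choroid 98 of 16113 named identifiers matched, 13 mitochondrial and 85 nuclear. Cytochrome b is on the RPE/choroid list only, because the retina table spells its symbol in a way the names do not cover. Also on that list only were Ndufa3, Ndufa12, Ndufb4, Ndufs6, Uqcr11, Cox7a1, Atp5if1, Atp5md and a second identifier of Uqcrb. With reads and on the retina list only were Cox7b2, Atp5hl1 and Atp5sl. A second Cox6b1 identifier stood apart in RPE/choroid and was summed with the first in retina. The lists of the tissues share 87 identifiers. Several names carry members that are no plain subunits: Atp5if1 inhibits the ATP synthase, Atp5s and Atp5sl are accessory factors, and Ndufa4 is now placed with complex IV although its name puts it in complex I, where it is counted here.

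Bulk mRNA libraries, 3 per group and tissue and 18 in all, came from wild-type female rats. Young rats were 4 months old by the labels, aged rats were 24 months old and drank water only, and the third group was aged rats of 24 months that had received 8-aminoguanine (8-AG), an endogenous purine that inhibits purine nucleoside phosphorylase, at 5 mg/kg body weight per day in drinking water for the last 8 weeks. Poly-A capture is described for every library, with enrichment for full-length transcripts added for RPE/choroid because its RNA yield was low, yet the sample records name total RNA for the 8-AG retina libraries and polyA RNA for the others. No source states that the libraries of a group are separate animals, and the labels of young RPE/choroid libraries 1 and 2 carry the same number with an L and an R, like those of aged libraries 1 and 2, so p-values measure the spread between these libraries, which may be partly technical.

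The 5 complexes lie in the inner mitochondrial membrane. Complexes I to IV pass electrons from NADH and succinate to oxygen and pump protons (complex II passes electrons without pumping), and complex V, the ATP synthase, lets the protons flow back to make ATP. Most subunits are encoded in the nucleus and imported, complex II entirely so, while the mitochondrial genome supplies core subunits of the other complexes from polycistronic transcripts. Photoreceptors pack mitochondria into their inner segments and also run a high rate of glycolysis, whereas the RPE depends largely on oxidative metabolism.

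Levels are given as CPM, the count of a gene scaled to the TMM-corrected library total, set separately for each tissue, and a member is called where edgeR's quasi-likelihood test gives a Benjamini-Hochberg adjusted p under 0.05 over all genes tested. Retina libraries held 12283458 to 15644346 counts and RPE/choroid libraries 28573828 to 48203050. Checked against markers, 15 rod markers summed to 38696 to 66846 CPM in retina, and 12 RPE markers summed to 283 to 619 CPM there and to 6668 to 18683 CPM in RPE/choroid. The RPE/choroid libraries also held rod RNA, at 740.4 to 59305 CPM, and in young libraries 1 and 2, aged library 3 and 8-AG library 1 the rod sum exceeded the RPE marker sum. RPE/choroid library 1 of the 8-AG group stands apart: its 16 striated muscle markers summed to 68093 CPM against 34.4 to 5763 CPM in the other 8 libraries, its rod markers to 59305 against 740.4 to 21064 CPM, its endothelial markers to 686 against 4043 to 8803 CPM, and its RPE markers to the lowest sum of the 9 libraries, although 7 of the 12 RPE markers lay above and 4 below all other libraries. The main values for that group are therefore given with and without it. In bulk tissue, fewer cells of a type and less RNA per cell cannot be told apart.

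In the retina, the transcripts of the respiratory chain and the ATP synthase differed little between aged and young rats, in both genomes. Of 84 members tested, 1 rose and 1 fell at an adjusted p under 0.05 by edgeR, 2.38% of them, where 14.6% of all 14585 genes tested were called (7.30% higher and 7.27% lower). The called members were Mt-nd3, a mitochondrially encoded core subunit of complex I, and Ndufa4. The fitted log2 fold changes of the members ran from -0.25 to 0.34, and 57 of the 84 were above 0, where 50.4% of all genes were. The median log2 fold change was 0.080 for 72 nuclear and -0.055 for 12 mitochondrial members, against 0.0019 for all genes. At an unadjusted p under 0.05 there were 9 members higher and 3 lower, against 14.9% and 14.4% of all genes in the same directions. The nuclear median was 0.018 without aged library 2, 0.026 without young library 3 and 0.13 without aged library 1, and the mitochondrial median was -0.024, -0.10 and -0.027 without aged libraries 1, 2 and 3, -0.11 without young library 2 and 0.027 without young library 3.

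Mt-nd3 (ENSRNOG00000033615) was at 639.6, 623 and 601 CPM in the young and at 701, 749.9 and 717 CPM in the aged retina. All aged libraries lay above all young ones, with a log2 fold change of 0.22 (standard error 0.059, edgeR adjusted p = 0.034). Ndufa4 (ENSRNOG00000005512) was at 240.3, 233 and 224 CPM in the young and at 194, 206 and 199 CPM in the aged retina. Here all aged libraries lay below, with a log2 fold change of -0.22 (standard error 0.058, edgeR adjusted p = 0.029). Both calls depend on the fit and on single libraries. With all libraries kept, the adjusted p in edgeR was 0.46 for Mt-nd3 and 0.14 for Ndufa4 with the 3 groups in one fit, at the same log2 fold changes of 0.22 and -0.22. The adjusted p of Mt-nd3 in edgeR was 0.07 without aged library 2, 0.081 without aged library 3, and 0.082, 0.11 and 0.12 without young libraries 1, 2 and 3. That of Ndufa4 was 0.06 and 0.086 without aged libraries 1 and 3 and 0.12 and 0.096 without young libraries 1 and 2. Without aged library 1, edgeR called 7 members higher, Mt-nd3 among them, with log2 fold changes from 0.23 to 0.35, where 7.55% of all genes in that fit were called higher. In the 8-AG retina Mt-nd3 was at 502, 602 and 871 CPM and Ndufa4 at 170.1, 194 and 228 CPM, values that overlap both other groups.

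The other mitochondrially encoded members kept overlapping values in the aged and young retina. Mt-co1, the catalytic core of cytochrome c oxidase, was at 31704, 29149.6 and 32175 CPM in the young and 29096, 34013 and 30853 CPM in the aged retina. The log2 fold changes of the complex I genes Mt-nd1, Mt-nd2, Mt-nd4, Mt-nd4l, Mt-nd5 and Mt-nd6 lay between -0.15 and 0.21, those of Mt-co1, Mt-co2 and Mt-cox3 between -0.14 and 0.014, and those of the ATP synthase genes Mt-atp6 and Mt-atp8 were -0.069 and -0.24. Summed over the 12 genes, mitochondrial transcripts made 80667, 72603 and 85103 CPM in young, 73292, 84139 and 76253 CPM in aged and 74495, 89979 and 104209 CPM in 8-AG retina. Genes that overlap on the mitochondrial genome, such as Mt-atp8 with Mt-atp6 and Mt-nd4l with Mt-nd4, can exchange reads in counting, and no source used here states whether counting was by strand.

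Among nuclear members the complexes gave similar medians in the aged retina. Complex I had a median log2 fold change of 0.088 over 32 members. Its 2 largest increases at a mean log2 CPM of at least 1 were Ndufa4l2 (0.31, standard error 0.34) and the accessory subunit Ndufa8 (0.26, standard error 0.085, edgeR adjusted p = 0.069), and below Ndufa4 stood Ndufb10 (-0.16, standard error 0.065, edgeR adjusted p = 0.14). In complex II, which is also the succinate dehydrogenase of the citric acid cycle, the log2 fold changes were -0.046 for the flavoprotein Sdha, 0.057 for the iron-sulfur subunit Sdhb, and 0.13 for both membrane anchors, Sdhc and Sdhd, with a smallest adjusted p of 0.21 in edgeR. The 7 members of complex III had a median of 0.024 and ran from Uqcrb (-0.12), with Uqcrc1 next (-0.043), to Uqcr10 and Uqcrq (both 0.13).

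In complex IV the median was 0.075 over 12 members, between Cox7c (-0.12) and Cox8a (0.15), with Cox7b at -0.030 and Cox6b1 at 0.13. Of the genes that exist as isoform sets, Cox4i1 stood at 0.12 and Cox4i2 at 0.029 (standard errors 0.071 and 0.17), Cox6a1 at 0.082, Cox7a2 at 0.11 and Cox7a2l at 0.077. The muscle isoforms Cox6a2 and Cox8b stayed at 0.244 CPM or less in every retina library and were not tested, and neither were Cox6b2, Cox7b2, Atp5hl1 and Ndufv3-ps1. The ATP synthase had the widest range, a median of 0.094 over 17 members. Its c-ring is encoded by 3 genes with one mature protein, and these differed in sign, with -0.25 for Atp5g1 (standard error 0.11, unadjusted p = 0.043), 0.17 for Atp5g2 (standard error 0.073, unadjusted p = 0.042) and -0.081 for Atp5g3, none called (smallest edgeR adjusted p = 0.15). Atp5b, the catalytic beta subunit, was at 1099.7, 1026 and 1096 CPM in the young and 923, 1009.7 and 1009 CPM in the aged retina, without overlap, at a log2 fold change of -0.13 (standard error 0.063, edgeR adjusted p = 0.20). The largest increases of the complex were those of Atp5i (0.34) and Atp5s (0.33), with edgeR adjusted p of 0.20 and 0.17. In all, 10 members were higher and 4 lower in every aged than in every young library, where 18.1% and 17.2% of all genes tested were.

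Among the other steps of energy metabolism in the same libraries, glycolysis stood out by its count of calls. Of 17 glycolysis genes, 8 fell and 1 rose at an adjusted p under 0.05, with a median log2 fold change of -0.21. In this fit 7.27% of all genes were called lower and 7.30% higher. At an unadjusted p under 0.05 the shares were 14.4% and 14.9%. Pyruvate kinase Pkm went from 2646 ± 82.2 to 1889 ± 187 CPM (SD, n = 3), a log2 fold change of -0.49 (standard error 0.077, edgeR adjusted p = 0.0028), and aldolase Aldoa from 1795 ± 59.5 to 1365 ± 79.6 CPM, -0.40 (standard error 0.064, edgeR adjusted p = 0.0032). The 1 that rose was the lactate dehydrogenase subunit Ldhb (0.43, edgeR adjusted p = 0.0044), named after its value was seen. Of 19 genes of pyruvate dehydrogenase and the citric acid cycle, 0 were called (0 higher and 2 lower at an unadjusted p under 0.05), with a median of 0.0083. Among 18 regulators of mitochondrial biogenesis and mitochondrial DNA expression 3 fell and 1 rose, where 14.6% of all genes were called in either direction. Polg2, the accessory subunit of the mitochondrial DNA polymerase, stood at -0.60 on the log2 scale (standard error 0.10, edgeR adjusted p = 0.0032), and Nrf1, a transcription factor for nuclear mitochondrial genes, of -0.36 (standard error 0.073, edgeR adjusted p = 0.0092). The other 2, named after their values were seen, were the mitochondrial RNA polymerase Polrmt (-0.35) and the DNA helicase Twnk (0.33).

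Of 45 assembly factors tested, 2 rose, and the median was 0.058. These were Tmem126b (edgeR adjusted p = 0.027) and Ndufaf5 (edgeR adjusted p = 0.023), both complex I factors at a log2 fold change of 0.36. Beside the counts of this paragraph, 7.30% of all genes in this fit were called higher and 7.27% lower. Of 12 carriers and outer membrane genes 1 rose, the import receptor subunit Tomm22 (0.22, edgeR adjusted p = 0.045), while Tomm20 was at -0.036 (standard error 0.060). Markers of cell types also differed between these libraries. The rod markers summed to 64950.1 ± 2766 CPM in the young group and 40714 ± 2624 CPM in the aged one (SD, n = 3), with 12 of 15 fallen, and the microglia and macrophage markers to 45.8 ± 1.61 and 181 ± 50.7 CPM, with 11 of 11 tested risen. Beside these, nuclear members summed to 6918, 6583 and 6628 CPM in the young group and 6389, 7121 and 6826 CPM in the aged one. The part of these marker differences in the values of the members, of glycolysis and of the other lists was not tested.

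**Figure D1:**
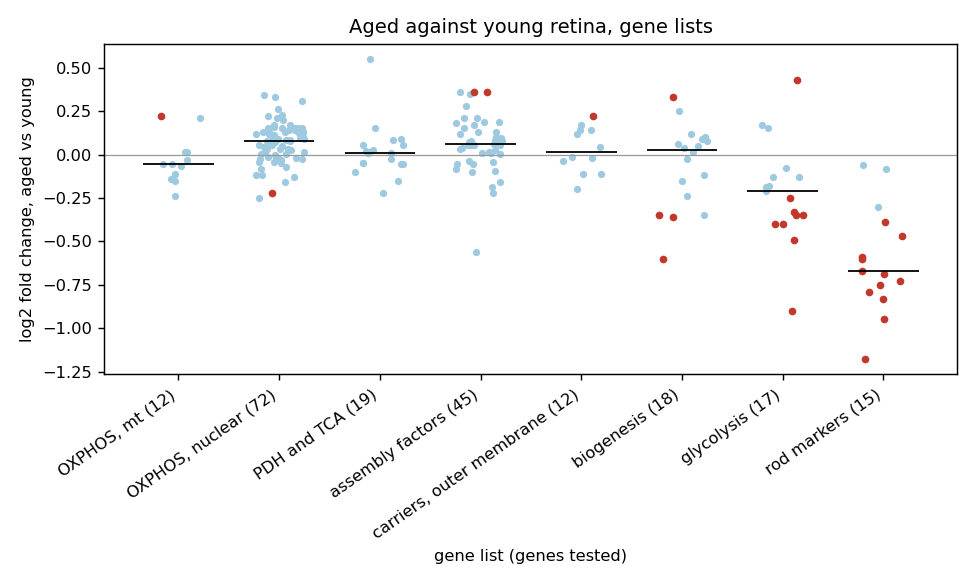
Log2 fold changes of aged against young retina (vertical axis) for the members and for 6 other gene lists (horizontal axis, with the number of genes tested); red points have an edgeR adjusted p under 0.05 and lines are medians. The 72 nuclear members centre on 0.080 with 1 red point, whereas the 15 rod markers centre on -0.67 with 12.

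In 8-AG retina against aged retina, no member was called, and mitochondrially encoded members had higher fitted values than nuclear ones. Of 84 members tested 0 were called by edgeR, where 0.0205% of 14628 genes tested were. DESeq2 called 0 of 90 members and 18 of 21048 genes, with a smallest member adjusted p of 0.053. Without 8-AG library 1 the smallest member adjusted p in edgeR was 0.097. At an unadjusted p under 0.05 there were 5 members higher, all mitochondrial, and 0 lower, against 2.03% and 1.64% of all genes. The median log2 fold change was 0.29 for 12 mitochondrial members, of which 11 were above 0, and -0.028 for 72 nuclear members, of which 24 were, beside -0.0031 for all genes, of which 49.0% were above 0. By complex the mitochondrial medians were 0.29 in complex I, 0.090 in complex IV and 0.31 in complex V, and the nuclear medians lay between -0.10 in complex III and 0.00077 in complex II.

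Mt-nd4, a proton-pumping subunit of complex I, was at 4886, 5442 and 5010.2 CPM in aged and 5696, 7654 and 8080.0 CPM in 8-AG retina, without overlap, at a log2 fold change of 0.48 (standard error 0.13, unadjusted p = 0.0043, edgeR adjusted p = 1.0). Mt-nd6, the one protein-coding gene on the other strand of the mitochondrial genome, was at 1120.3, 1150.0 and 1054 CPM in aged and 1160.4, 1356 and 1744 CPM in 8-AG retina, at 0.35 (standard error 0.14, unadjusted p = 0.03). The log2 fold changes of Mt-atp6, Mt-nd1 and Mt-nd5 were 0.33, 0.29 and 0.29, with overlapping groups. Mt-nd2 stood at 0.36, Mt-nd4l at 0.26, Mt-atp8 at 0.29, Mt-cox3 at 0.21, Mt-co1 at 0.090, Mt-co2 at 0.064 and Mt-nd3 at -0.14. In 3 members every 8-AG library lay above every aged one, and in 0 below, where 4.81% and 3.96% of all genes tested did so. Beside Mt-nd4 and Mt-nd6 this was Atp5a1, the alpha subunit of the ATP synthase.

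The high values belong mostly to 8-AG library 3. The 12 mitochondrial genes summed to 104209 CPM there, to 89979 CPM in 8-AG library 2 and to 74495 CPM in library 1, which lies among the aged libraries. Counted as reads per nuclear member read, the mitochondrial members stood at 11.5, 11.8 and 11.2 in aged and at 11.9, 13.3 and 14.1 in 8-AG retina, beside 11.7, 11.0 and 12.8 in young retina. Without 8-AG library 3 the mitochondrial median was 0.10 and the nuclear median -0.11, with 1 member higher and 20 lower at an unadjusted p under 0.05, against 2.55% and 2.90% of all genes in that fit, and 0 called by edgeR. The nuclear median was above 0 without 8-AG library 1 (0.037) or aged library 2 (0.011). The rod markers had the same order in these libraries, 39795, 47309 and 52002 CPM in 8-AG libraries 1 to 3 against 38696 to 43680.2 CPM in aged ones, with 12 of 15 above 0 (median log2 fold change 0.20), 5 of them at an unadjusted p under 0.05 and 0 called by edgeR. Of the other marker lists, 12 of 12 RPE markers were above 0 (0.65), while 4 of 4 erythroid (-1.18), 10 of 12 microglia and macrophage (-0.21) and 7 of 8 endothelial markers (-0.11) were below, 0 of them called by edgeR and 0 at an unadjusted p under 0.05. The part of these markers in the result was not tested. Since the labels give another RNA type for all 8-AG retina libraries, treatment and RNA type cannot be told apart.

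No nuclear member passed an unadjusted p of 0.05. The 4 complex II genes had log2 fold changes from -0.030 to 0.042. The largest decreases were Ndufb2 (-0.17) and Ndufb8 (-0.16) in complex I, Uqcrb (-0.16) and Uqcrq (-0.13) in complex III, Cox5b (-0.25, standard error 0.12) and Cox7c (-0.16) in complex IV, and Atp5e and Atp5i (both -0.17) in complex V. The increases at the other end were Ndufs4 (0.17), Uqcrc2 (0.16), Atp5a1 (0.12), Atp5f1 (0.062), Cox7a2l (0.053), Cox7b (0.035) and Uqcrc1 (0.0079). Ndufa4l2, a paralogue of Ndufa4 that is induced by low oxygen, had the largest fitted value, 1.45, and it rests on 1 library: 16.6 CPM in 8-AG library 1 against 1.38 and 1.67 CPM in the other 8-AG libraries and 1.56, 3.51 and 2.0 CPM in aged retina.

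The other lists of energy metabolism held 0 calls by edgeR in this comparison, with 1 gene of pyruvate dehydrogenase and the citric acid cycle higher at an unadjusted p under 0.05 and 0 in the other lists, and medians of 0.053 for that list, -0.054 for assembly factors, 0.00028 for biogenesis regulators, 0.062 for carriers and 0.090 for glycolysis.

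**Figure D2:**
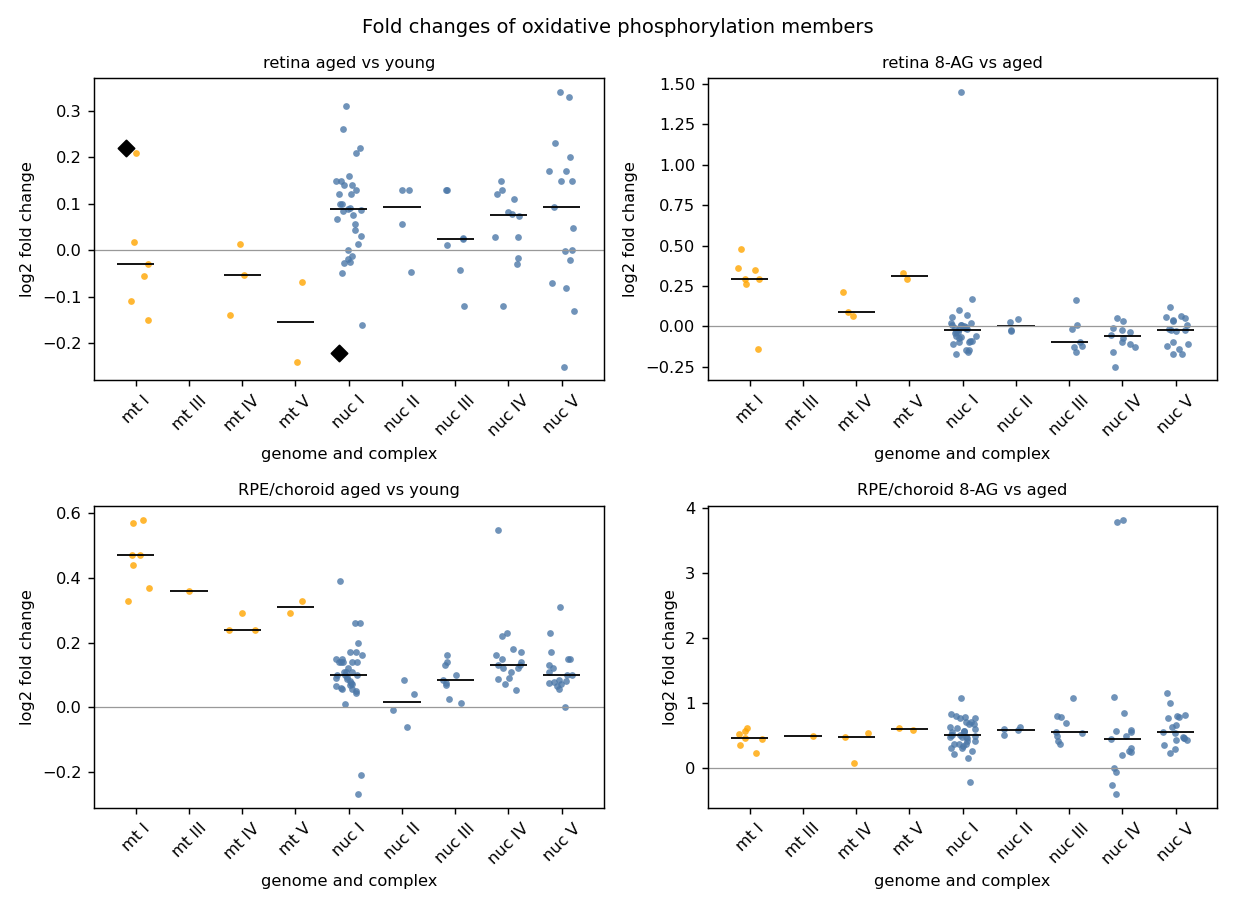
Log2 fold changes of every member tested (vertical axis, scaled per panel) by genome and complex (horizontal axis; mt, mitochondrial, and nuc, nuclear) in the 4 comparisons; lines are medians and black diamonds are the 2 members with an edgeR adjusted p under 0.05. Nuclear and mitochondrial medians are -0.028 and 0.29 in 8-AG against aged retina, and 0.10 and 0.36 in aged against young RPE/choroid. Single libraries move these medians, and their differences were not tested.

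In RPE/choroid, most members had higher fitted values in aged than in young rats, and none was called. Of 98 members tested 0 had an adjusted p under 0.05 by edgeR, and 0 by DESeq2, and 0% of all 16047 genes tested were called by edgeR (29 by DESeq2). At an unadjusted p under 0.05 there was 1 member higher and 0 lower, against 0.929% and 1.20% of all genes. Yet 93 of 98 members had a log2 fold change above 0, where 53.0% of all genes did. The median was 0.36 for the 13 mitochondrial members, all above 0, and 0.10 for the 85 nuclear ones, beside 0.018 for all genes. Single libraries move these medians. Leaving out aged library 3 gave a mitochondrial median of 0.20, young library 3 one of 0.24 and young library 2 one of 0.62. The nuclear median became 0.036 when young library 1 was left out and 0.16 when young library 2 was.

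The member with the unadjusted p under 0.05 was Mt-nd3, at 20.1, 26.8 and 24.9 CPM in young and 30.1, 33.0 and 45.3 CPM in aged RPE/choroid, without overlap, a log2 fold change of 0.58 (standard error 0.20, unadjusted p = 0.027, edgeR adjusted p = 1.0). The other complex I genes of the mitochondrial genome lay between 0.33 for Mt-nd1 and 0.57 for Mt-nd6, cytochrome b (Mt-cyb, the mitochondrial subunit of complex III) at 0.36, Mt-co1, Mt-co2 and Mt-co3 at 0.24, 0.29 and 0.24, and Mt-atp6 and Mt-atp8 at 0.29 and 0.33. The standard errors of the mitochondrial members ran from 0.20 to 0.32. Summed, the 13 genes made 16428, 23695 and 14992 CPM in young and 20149.8, 18701 and 28807 CPM in aged libraries, which overlap.

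Among nuclear members the medians were 0.10 in complex I, 0.015 in complex II, 0.084 in complex III, 0.13 in complex IV and 0.10 in complex V. Sdha, Sdhb, Sdhc and Sdhd had -0.062, 0.083, -0.0099 and 0.040. The largest increases at a mean log2 CPM of at least 1 were Ndufc2 and Ndufa12 (both 0.26), Uqcrq (0.16) and Uqcrh (0.14), Cox8b (0.55, standard error 2.35) and Cox4i2 (0.23), and Atp5f1e (0.31) and Atp5s (0.23), while Ndufa4l2 was at -0.27. The nuclear members summed to 13188, 15850.0 and 14158 CPM in young and 14843, 15029.6 and 16253 CPM in aged libraries. In 6 members the lowest aged library exceeded the highest young one, and in 0 the reverse held, where 2.98% and 4.12% of all genes did so. Beside Mt-nd3 and Ndufc2 these were Ndufs3, Cox5b, Atp5s and one of the 2 identifiers named Ndufv3, listed for that count. The rod markers, at 19005, 21064 and 2165 CPM in young and 12313, 740.4 and 17819 CPM in aged libraries, varied within each group, with 14 of 15 below 0 (median log2 fold change -0.43). Of the other marker lists, 8 of 8 endothelial markers were below 0 (median log2 fold change -0.57), as were 3 of 3 erythroid (-2.94) and 9 of 12 RPE markers (-0.26), while 13 of 15 bipolar and inner neuron markers were above 0 (0.55). Of these 0 were called by edgeR, with 2 endothelial and 2 erythroid markers lower at an unadjusted p under 0.05, and their part in the members' values was not tested. With the rod marker level as a covariate the medians were 0.10 nuclear and 0.44 mitochondrial, and 0 members were called.

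Aging changes were compared between the tissues with an interaction term over 16789 genes. Members were here taken by identifier from either tissue's list, so cytochrome b is among them. This set of 98 tested differs from the 98 members of RPE/choroid. Of 98 members 0 were called by edgeR (smallest adjusted p = 0.66) and 0 by limma. Of all genes, 0.161% were called by edgeR (0.155% higher and 0.00596% lower). At an unadjusted p under 0.05 there were 0 members by edgeR and 3 by limma, where 8.25% and 7.24% of all genes were. The median difference, retina minus RPE/choroid, was -0.050 over all members and -0.37 over the mitochondrial ones. Single libraries move both. Over all members it was 0.017 without aged retina library 1, -0.10 without aged retina library 2, -0.016 without young retina library 1, and -0.013, -0.0014 and -0.10 without RPE/choroid aged library 3, young library 1 and young library 2. Over the mitochondrial members it was -0.21 without RPE/choroid aged library 3 and -0.57 without young library 2. The tissues were counted differently and their levels were not tested against each other. As values only, the 12 mitochondrial members on the retina list took 7.02% to 10.2% of all counts there. The 13 on the RPE/choroid list, cytochrome b included, took 1.49% to 4.32%. The 78 nuclear members of the retina took 0.627% to 0.739% and the 85 of RPE/choroid 1.38% to 3.32%. These shares thus cover different sets. Cytochrome b, left out of the retina share, was at 8303 to 11200.4 CPM in retina.

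In RPE/choroid of 8-AG rats, members of all 5 complexes had higher fitted values than in aged rats, and this difference was carried by library 1. Of 98 members tested 0 were called by edgeR and 0 by DESeq2, 0 had an unadjusted p under 0.05 in either direction (1.26% of all genes were higher and 0.424% lower at that threshold), and 0% of all 16257 genes tested were called by edgeR (81 by DESeq2). With all 3 libraries, 93 of 98 log2 fold changes were above 0, where 51.6% of all genes were, with medians of 0.53 nuclear and 0.49 mitochondrial. Without library 1, 48 of 98 were above 0. The medians were then 0.016 for the nuclear and -0.19 for the mitochondrial members, all 13 of the latter below 0. In that fit 0 members were called and 0 had an unadjusted p under 0.05. At that threshold 312 of 16553 genes tested were higher and 299 lower. In that fit the rod markers had a median of -3.29 (15 of 15 below 0, 2 at an unadjusted p under 0.05), the bipolar and inner neuron markers one of -2.05 (15 of 15 below 0) and the erythroid markers one of 2.68 (3 of 3 above 0), and their part in the members' values was not tested. Per library, nuclear members summed to 37076, 13913 and 17014 CPM in the 8-AG group and mitochondrial members to 48302, 18001 and 22345 CPM. The ratio of mitochondrial to nuclear member counts, in contrast, was 1.30, 1.29 and 1.31 in these libraries and 1.24 to 1.77 in the aged ones.

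**Figure D3:**
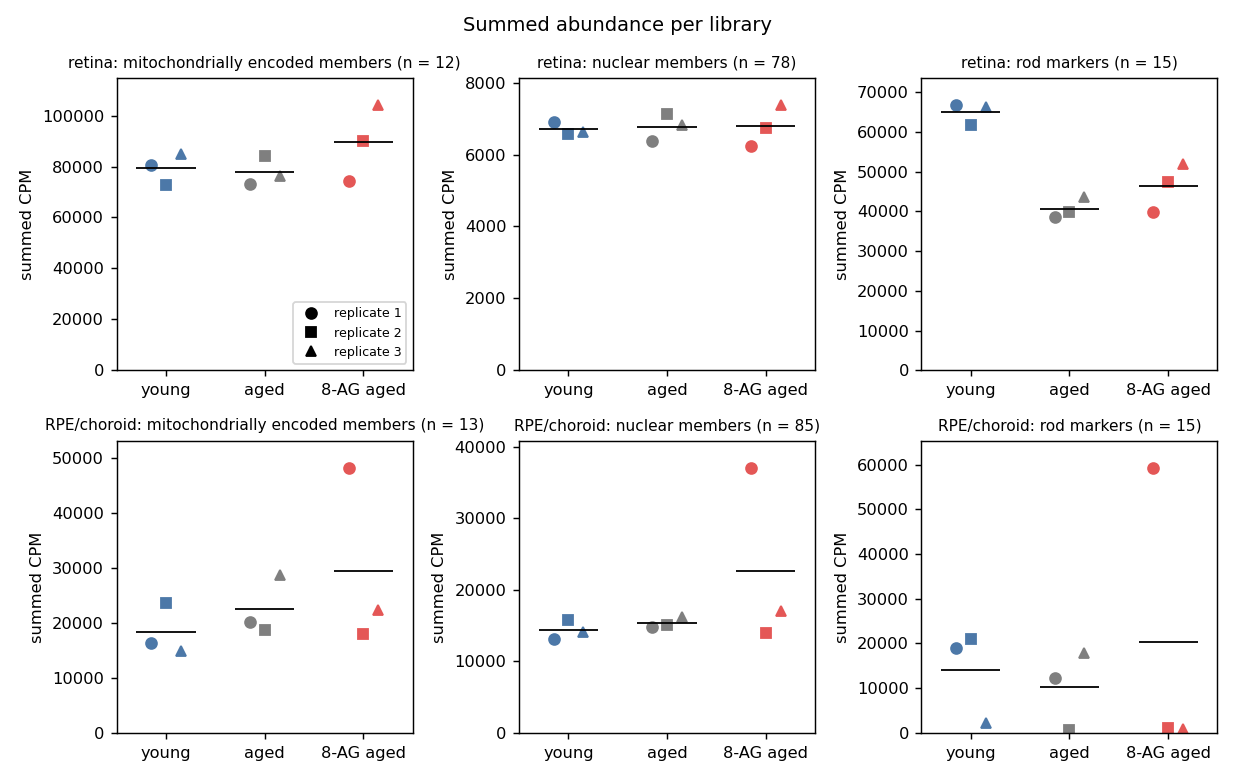
Summed CPM per library (vertical axes, from 0) of mitochondrial members, nuclear members and rod markers in retina (upper row) and RPE/choroid (lower row); symbols are replicates and lines are means of 3. RPE/choroid 8-AG replicate 1 lies highest in all 3 lower panels, at 48302, 37076 and 59305 CPM, and in retina the rod sums of the aged groups lie below those of the young group while the member sums overlap.

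Library 1 was raised across the complexes and yet not evenly. Of 98 members 92 lay above all 8 other RPE/choroid libraries, where 31.5% of 14595 genes with a mean of at least 1 CPM did. The median ratio to the mean of the other 8 libraries was 2.34 for nuclear and 2.74 for mitochondrial members, and by complex the nuclear medians were 2.38, 2.27, 2.35, 2.19 and 2.38 for complexes I to V. These are values of 1 library and carry no test. In the same library the median ratio was 2.86 for pyruvate dehydrogenase and citric acid cycle genes, 3.33 for glycolysis and 2.03 for carriers. It was 1.5 for assembly factors and 1.15 for biogenesis regulators, beside 0.947 for all genes. Of the marker lists, rods stood at 6.07, striated muscle at 39.5, bipolar and inner neurons at 3.39, Mueller glia at 2.44 and RPE at 2.15. Erythroid cells were at 0.566, microglia and macrophages at 0.239 and endothelium at 0.0675. With the striated muscle marker level as a covariate the member medians were 0.25 nuclear and 0.12 mitochondrial, and with the rod marker level 0.47 and 0.42. In this library the part of muscle RNA, rod RNA and RNA of the other cells in the members' values cannot be told apart from that of treatment. The largest ratios after the muscle isoforms below were those of Ndufs1, an iron-sulfur core subunit of complex I (549 CPM, 4.89 times the mean of the others), Cox7b of complex IV (403 CPM, 4.59 times), the Rieske iron-sulfur protein Uqcrfs1 (670.2 CPM, 4.42 times) and the c-ring gene Atp5mc1 (881 CPM, 4.38 times), whereas the other c-ring genes Atp5mc2 and Atp5mc3 were at 276 and 627 CPM. In the fit of all libraries Atp5mc1 had a log2 fold change of 1.15, Ndufs1 and Uqcrfs1 1.07 each, Atp5f1e 0.99, and Ndufv2 and Uqcrc2 0.80 each; without library 1 the last 3 stood at -0.002, 0.10 and -0.33. Without library 1, Ndufs1 stood at -0.34, Cox7b at -0.10 (1.09 with it), Uqcrfs1 at -0.11 and Atp5mc1 at 0.11. The 2 members in which every 8-AG library lay above every aged one, where 2.10% of all genes did so, were Ndufs6, at about 1 CPM in most libraries, and Atp5s; in 0 members did every 8-AG library lie below (1.86% of all genes). The complex II genes, 0.50 to 0.63 with all libraries, ran from -0.12 to 0.23 without it.

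**Figure D4:**
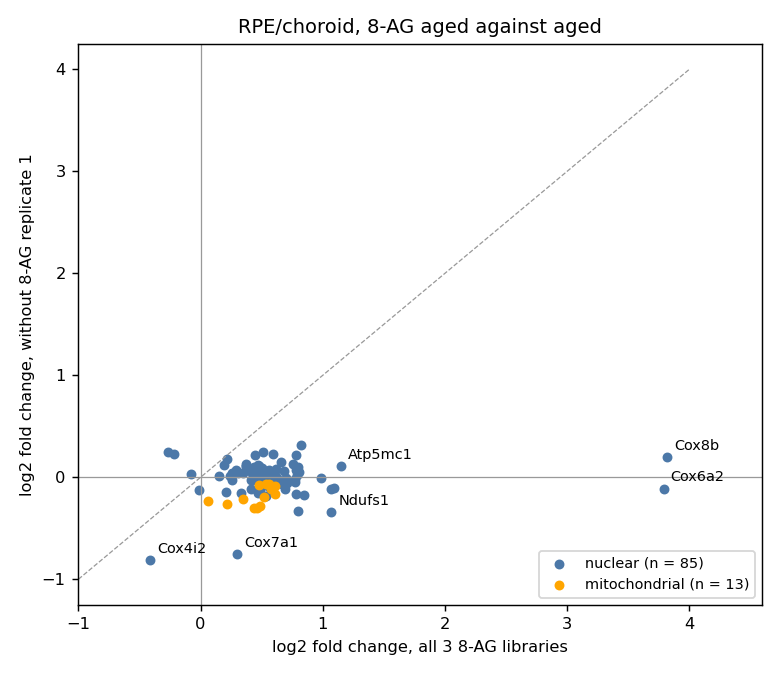
Log2 fold change of each of 98 members, 8-AG against aged RPE/choroid, with all 3 8-AG libraries (horizontal axis) and without replicate 1 (vertical axis); the dashed line marks equal values. Most points lie between 0 and 1 on the horizontal axis and near 0 on the vertical one, and Cox8b and Cox6a2 (3.82 and 3.79 with all libraries) drop to the level of the rest.

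Of the cytochrome c oxidase members that exist as tissue isoforms, the Cox6a and Cox8 pairs separated in these libraries. Cox6a2 and Cox8b are the forms of heart and skeletal muscle, and Cox6a1 and Cox8a their counterparts in most other tissues. Cox6a2 was at 0.200, 64.5 and 0.418 CPM in young, 71.3, 1.24 and 0.843 CPM in aged and 926, 44.7 and 0.698 CPM in 8-AG libraries. Cox8b was at 0.133, 26.4 and 0.230 CPM in young, 37.9, 0.648 and 0.304 CPM in aged and 496, 16.9 and 12.8 CPM in 8-AG libraries. The striated muscle markers summed to 34.4, 5763 and 57.4 CPM, 4464, 114 and 41.3 CPM, and 68093, 3056 and 62.8 CPM in the same order. Thus the 4 libraries with the highest muscle marker sums hold the 4 highest values of Cox6a2 and of Cox8b, and they come from all 3 groups; Cox6a2 and Cox8b are not among those markers.

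Their counterparts did not follow. Cox6a1 was at 445, 535 and 546 CPM in young, 458, 588 and 546 CPM in aged and 410.1, 516 and 569 CPM in 8-AG libraries, and library 1 thus had the lowest Cox6a1 of all 9. Cox8a was at 284, 304 and 303 CPM, 298, 332 and 341 CPM, and 382, 283 and 423 CPM. Cox7a2l, a supercomplex factor, was at 205 CPM in library 1 and 165 to 199 CPM elsewhere, and Cox6b2 and Ndufa4l2 had their lowest values there, 1.12 and 4.35 CPM. Cox7a1, another muscle form, was low throughout, at 2.55 CPM in library 1 and 0.501 to 1.65 CPM elsewhere. Other general forms were raised in library 1. Cox7a2l2, named Cox7a2 in the retina, was at 482 CPM there and 186 to 246 CPM elsewhere, and Cox4i1 at 406 and 189 to 264 CPM. In 8-AG against aged RPE/choroid the log2 fold changes were 3.79 for Cox6a2 (standard error 2.73) and 3.82 for Cox8b (standard error 2.40), -0.074 for Cox6a1 and 0.19 for Cox8a, 0.44 and -0.41 for Cox4i1 and Cox4i2, and -0.27 for Cox6b2. Without library 1 they were -0.11 for Cox6a2 (standard error 2.32) and 0.20 for Cox8b (standard error 1.92), 0.031 for Cox6a1 and 0.12 for Cox8a, 0.10 and -0.81 for Cox4i1 and Cox4i2, and 0.25 for Cox6b2.

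**Figure D5:**
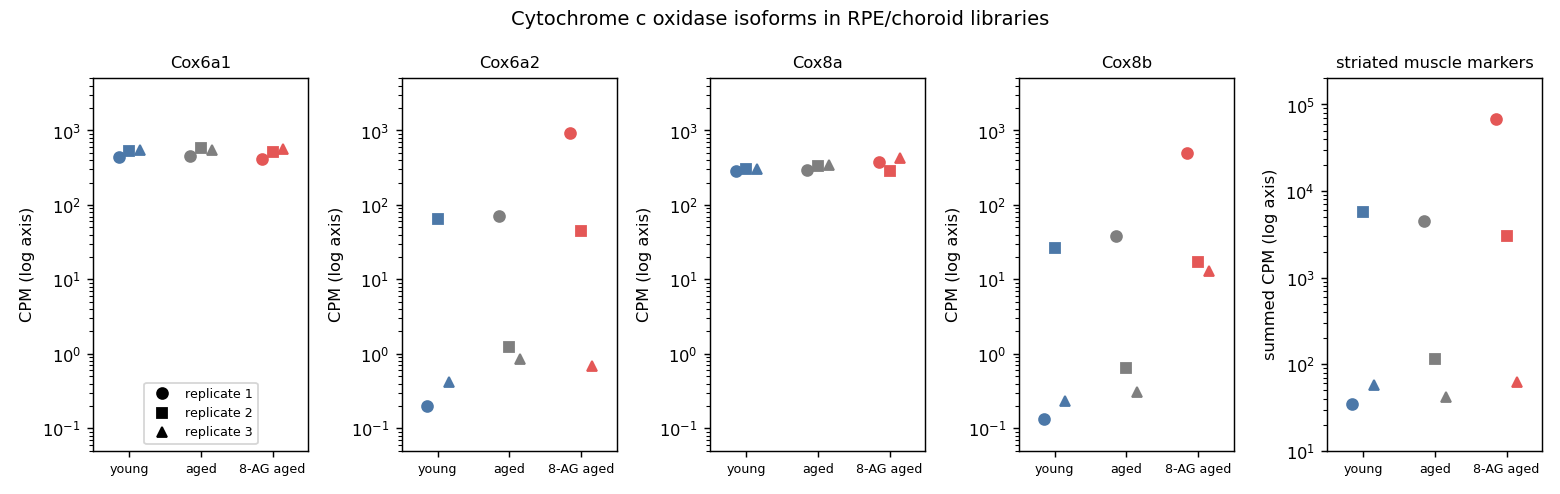
Levels of Cox6a1, Cox6a2, Cox8a and Cox8b in CPM, and of the summed striated muscle markers, per RPE/choroid library (log axes); symbols are replicates. Cox6a1 and Cox8a stay between 283 and 588 CPM in all 9 libraries, whereas Cox6a2 ranges from 0.200 to 926 CPM.

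Promoters of Cox6a2, Cox8b and Cox8a are shown because the levels of these isoforms parted in the libraries above. They are RefSeq sequences of build GRCr8, from 250 bases before to 50 bases after the gene's start, 5′ to 3′ on the gene's strand, and GRCr8 is not the build of the counts. Capitals mark CAGCTG, an E-box core of the kind myogenic factors bind, CCGGAAG or its reverse complement CTTCCGG, a core of ETS factors such as GABP, and TATAAA, the TATA box.
Cox6a2 (chr1:192219667-192219966, minus strand): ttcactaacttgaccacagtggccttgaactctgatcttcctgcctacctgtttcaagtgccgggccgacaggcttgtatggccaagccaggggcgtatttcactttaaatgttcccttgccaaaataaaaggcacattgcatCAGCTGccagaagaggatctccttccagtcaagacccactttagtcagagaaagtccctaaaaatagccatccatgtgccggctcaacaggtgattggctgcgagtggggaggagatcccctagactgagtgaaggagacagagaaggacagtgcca
Cox8b (chr1:205408224-205408523, minus strand): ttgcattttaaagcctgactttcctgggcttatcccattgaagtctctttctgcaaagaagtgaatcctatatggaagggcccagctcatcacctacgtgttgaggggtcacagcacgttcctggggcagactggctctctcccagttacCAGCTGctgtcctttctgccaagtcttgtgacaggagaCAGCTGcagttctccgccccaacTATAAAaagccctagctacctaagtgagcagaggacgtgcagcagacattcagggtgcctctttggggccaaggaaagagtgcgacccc
Cox8a (chr1:213833574-213833873, minus strand): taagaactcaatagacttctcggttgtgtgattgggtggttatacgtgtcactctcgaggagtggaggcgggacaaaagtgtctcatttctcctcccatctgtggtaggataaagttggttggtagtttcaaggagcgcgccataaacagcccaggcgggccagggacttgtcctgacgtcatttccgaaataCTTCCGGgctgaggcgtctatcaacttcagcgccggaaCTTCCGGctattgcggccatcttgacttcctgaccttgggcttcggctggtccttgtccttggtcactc
The Cox6a2 promoter holds 1 CAGCTG, the Cox8b promoter 2 and a TATAAA, and the Cox8a promoter 2 copies of CTTCCGG. The promoter of Cox4i1, a form of most tissues, holds CAGCTG as well. Over 74 promoters matched to 76 of 88 nuclear members, CAGCTG was present on either strand in 14.9% (15.1% of all 27457 promoters), TATAAA in 10.8% (14.3%), CCGGAAG in 25.7% (9.22%), and the palindromic core of the NRF1 motif in 5.41% (0.93%), namely in Ndufa11, Atp5i, Atp5mc2 and Atp5po. The motifs do not contain one another, and these are matches of letters that do not show binding.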

How the data were processed

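Messenger RNA was measured in 18 libraries, 3 per group and tissue. For the retina the authors deposited RSEM expected counts per gene, which were rounded to whole counts here (11.5% of values were not whole). For RPE/choroid the authors deposited raw counts per gene, with the counting program not given in the sources used here. The submitters' processing notes name Bowtie2 2.1.0, RSEM 1.2.15, edgeR and build Rnor_6.0 without roles. A TMM-scaled signal table that the authors deposited for the retina served only to link gene symbols to identifiers. The authors' comparison tables, which hold fold changes and p-values, were not used apart from the symbols one of them pairs with RPE/choroid identifiers. Columns of samples outside the series numbered 0.

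Each pair of groups was fitted separately, on 6 libraries, by edgeR's robust quasi-likelihood test (edgeR 4.0.16, R 4.3.3) after filterByExpr and TMM scaling, with Benjamini-Hochberg adjustment over all genes tested and a threshold of 0.05. An interaction term compared aging between the tissues. The fit was also run on simulated counts, drawn with a common dispersion for all genes unlike real counts, and no result here rests on that run. Fold changes are log2. Library pairs within groups differed by 5.78 to 1351 in chi-square per degree of freedom, so none was counted as a duplicate. The sizes of the libraries, and the 3 per group, limit precision, and an exact permutation test of 3 against 3 cannot go below 0.1.

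The members and lists were chosen with earlier results of these data known. Named with values were all mitochondrial members, the 4 Sdh genes, the 2 largest increases and 2 largest decreases of complexes I, III, IV and V at a mean log2 CPM of at least 1, the isoform sets, up to 2 called genes of each other list, and Tomm20; members named for another reason are marked. DESeq2 1.42.0, limma 3.58.1, other scalings and filters, a replicate block, marker covariates and leaving out each library were alternatives. Same-numbered libraries were checked for shared deviations, which did not settle whether they are pairs, and the main fits treat them as unpaired. Promoters are from RefSeq, build GRCr8.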

Additional observations from a re-analysis of the deposited data

How the results depend on the processing

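In aged against young retina the count of members called higher, 1 by edgeR, was 0 with the 3 groups in one fit and 2 without a filter on low counts (Ndufa8 added), and from 0 to 7 when each library was left out. The count called lower, 1, was 0 with the 3 groups in one fit and from 0 to 2 when each library was left out (Mt-atp8 and Ndufa4 without young library 3). DESeq2 and other size factors gave 1 and 1, and so did taking members by identifier from either tissue's list, an alternative chosen after seeing the data. The cause of these shifts was not tested. In the other comparisons 0 members were called under every alternative run. Leaving out each library moved the medians of 8-AG against aged RPE/choroid from 0.016 to 0.77 for nuclear and from -0.19 to 0.78 for mitochondrial members, both lowest without 8-AG library 1. It moved them from -0.11 to 0.037 and from 0.10 to 0.43 in 8-AG against aged retina. Of 585 values of 39 named members under the alternatives in aged against young retina 13 lost the threshold, 3 gained it and 0 changed direction after a call.

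With the replicate number as a block, 0 members were called higher and 0 lower in aged against young retina (edgeR adjusted p = 0.081 for Mt-nd3 and 0.078 for Ndufa4), and the interaction called 0 of all genes instead of 27, while 0 members were called in the other comparisons with or without the block. Whether the numbers mark pairs was not settled by the correlations of same-numbered libraries. These ran from -0.077 to 0.10 in aged against young retina. In 8-AG against aged retina they ran from 0.038 to 0.084, and each library correlated best with its own number. The ranges were -0.58 to 0.18 in aged against young RPE/choroid and -0.16 to 0.65 in 8-AG against aged RPE/choroid.

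The spread between libraries and their depth both limit precision, and their parts were not compared. The common dispersion was 0.0147 and 0.0179 in the retina comparisons and 0.195 and 0.396 in RPE/choroid.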

Other observations

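Cox8b and Cox6a2 parted in 1 RPE/choroid library. In 8-AG library 3 Cox8b was at 12.8 CPM while Cox6a2 was at 0.698 CPM and the striated muscle markers summed to 62.8 CPM, whereas the libraries with similar muscle sums held 0.133 to 0.648 CPM of Cox8b.

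Some identifiers stood at low levels beside their partners in RPE/choroid. Atp5pb, the b subunit of the ATP synthase stalk, ranged from 6.71 to 27.5 CPM, and Ndufs6 from 0.838 to 2.39 CPM. Reads of genes with near-identical copies can be split in counting, so these levels are uncertain, as are those of Uqcr10, Cox6b1 and Atp5f1 in the retina.

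In the retina the marker lists of other cells gave a median log2 fold change with age of 0.18 for Mueller glia, 0.0017 for bipolar and inner neurons, 0.64 for endothelium, 0.83 for RPE and 2.38 for erythroid cells. In this order 2, 2, 1, 0 and 0 genes had risen and 2, 2, 0, 1 and 0 fallen at an edgeR adjusted p under 0.05. Of all genes in that fit, 7.30% were called higher and 7.27% lower.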
